A study of Mus musculus with 32 samples.

Results

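Small nucleolar RNAs (snoRNAs) and the related small Cajal body RNAs were followed across 16 total RNA libraries of mouse 1-cell and 2-cell embryos. Genes were taken by name: Snora for box H/ACA snoRNAs, Snord for box C/D snoRNAs and Scarna for Cajal body RNAs. A gene was kept if it stood at 1 FPKM (mapped fragments scaled to model length and to the library) or more in 2 or more total RNA libraries. Of 46078 genes in the table, 131 carried such a name and 99 were kept, comprising 38 of 40 H/ACA, 52 of 82 C/D and 9 of 9 Cajal RNAs. The members just inside the limit were Snord72, Snord61 and Snord37, with a second-highest library at 1.08, 1.15 and 1.17 FPKM, and those just outside were Snord93, Snord47 and Snord7 at 0.972, 0.896 and 0.874. The table also lists 1428 snoRNA or scaRNA genes that GENCODE annotates under other names, of which 161 passed the same limit. These were not analysed here.

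SnoRNAs are stable noncoding RNAs that guide chemical modification of other RNAs by base pairing. C/D snoRNAs work with the methyltransferase fibrillarin and direct 2′-O-methylation, H/ACA snoRNAs work with the pseudouridine synthase dyskerin, and a few members of both classes are needed for cleavage of the ribosomal RNA precursor. Cajal body RNAs carry the same boxes but act mainly on spliceosomal RNAs. In mammals most are cut out of introns of host genes, many of which encode ribosomal proteins, and the mouse embryo begins large-scale transcription of its own genome at the 2-cell stage.

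The series compared embryos lacking the nuclear proteins DPPA2 or DPPA4 with controls. Total RNA was read in 8 groups of 2 libraries. The Dppa2 arm is on a B6/DBA mixed background and the Dppa4 arm on B6, and each arm holds m+z+ controls and m-z+ embryos, which the descriptions call maternal knockouts, 12 hours after fertilization (late 1-cell) and 28 hours after it (late 2-cell). A further 16 polyA libraries, given as single embryos, hold WT embryos (B6) at both stages with 2 libraries each, and at the 2-cell stage 3 libraries each of Dppa2 m-z+ and m-z- (B6/DBA) and of Dppa4 m-z+ and m-z- (B6). The labels state neither how many embryos went into a total RNA library nor whether replicates came from separate animals, and each p-value therefore reflects only the spread among these libraries, possibly technical. Whole 1-cell or 2-cell embryos were lysed and FPKM are scaled to each library. The amount of RNA per embryo or per cell is therefore not known.

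The sequences behind the results were read from the GENCODE M21 transcripts (mouse build mm10), 5′ to 3′. They are shown because these RNAs carry the largest stage changes, the highest levels or the differences between genotypes. The first 3 are H/ACA RNAs, with the ACA triplet near the 3′ end in capitals.
Snora21: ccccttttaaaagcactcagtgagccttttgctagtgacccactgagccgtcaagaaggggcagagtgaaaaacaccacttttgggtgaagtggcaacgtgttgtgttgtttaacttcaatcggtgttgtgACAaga
Snora26: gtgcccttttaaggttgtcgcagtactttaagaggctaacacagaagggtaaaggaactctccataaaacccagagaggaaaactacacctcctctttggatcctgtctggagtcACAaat
Snora78: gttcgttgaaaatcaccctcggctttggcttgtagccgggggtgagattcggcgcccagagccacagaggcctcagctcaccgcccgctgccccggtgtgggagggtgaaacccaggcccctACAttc
Snora21 lies at chr11:97781639-97781775 (minus strand) in an intron of the ribosomal protein gene Rpl23. Snora26 lies at chr5:74093530-74093650 (plus strand), where it overlaps an exon of the noncoding gene Dancr. Snora78 lies at chr17:24719676-24719803 (minus strand) inside the 435-base noncoding gene Snhg9.

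The next 4 carry C and D boxes, TGATGA and CTGA, which are in capitals. Snord53 has the C box only, since no CTGA was found in its last 15 bases. Scarna6 is a Cajal RNA in which both boxes were found near the ends, which does not settle its type.
Snord21: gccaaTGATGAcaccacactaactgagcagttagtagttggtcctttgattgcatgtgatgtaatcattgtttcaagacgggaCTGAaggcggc
Snord15b: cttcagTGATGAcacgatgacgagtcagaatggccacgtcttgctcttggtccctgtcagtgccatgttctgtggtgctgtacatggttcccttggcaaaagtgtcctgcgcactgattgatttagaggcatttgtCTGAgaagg
Snord53: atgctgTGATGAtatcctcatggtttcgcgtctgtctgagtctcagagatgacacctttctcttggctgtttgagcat
Scarna6: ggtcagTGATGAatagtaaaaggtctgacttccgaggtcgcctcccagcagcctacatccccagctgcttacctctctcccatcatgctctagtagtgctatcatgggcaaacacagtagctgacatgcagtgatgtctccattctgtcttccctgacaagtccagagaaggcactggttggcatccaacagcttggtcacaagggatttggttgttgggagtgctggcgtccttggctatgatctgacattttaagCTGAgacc
Snord21 lies at chr5:107904555-107904648 (plus strand, overlapping an exon of a transcript of Rpl5) and Snord15b at chr7:99479563-99479707 (minus strand, overlapping an exon of a transcript of Rps3). Snord53 lies at chr17:71640879-71640956 (plus strand) in an intron of Wdr43, and Scarna6 at chr1:87784556-87784820 (plus strand) in an intron of the autophagy gene Atg16l1.

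A C box within the first 25 bases together with a D box within the last 15 was found on the sense strand in 33 of the 52 C/D members (63.5%), and in 10 of 10683 other GENCODE transcripts of 60 to 330 bases (0.0936%). An ACA triplet 2 to 4 bases from the 3′ end was found in 36 of the 38 H/ACA members (94.7%), in 1 of the 52 C/D members (1.92%) and in 571 of the other transcripts (5.34%). Among the 9 Cajal RNAs, 4 held both C and D boxes and 4 held the ACA triplet. A match describes the letters of the model and is no evidence of use. Taken singly, the C box was found in 35 and the D box in 47 of the C/D members.

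Model lengths overlapped between the classes, with the lowest median in C/D RNAs. C/D members spanned 64 to 238 bases (median 83.5), H/ACA members 121 to 205 (median 132) and Cajal members 70 to 414 (median 140). In GENCODE, 89 of the 99 lie on the strand of a longer host gene of over 500 bases, 75 of them in protein-coding hosts, including 28 in genes of ribosomal proteins and 7 in genes of translation factors, and 14 in noncoding hosts. Another 10 have no such host: Snord13, Snord60, Snord104, Snord118, Scarna2, Scarna17, Snora17, Snora43, Snora57 and Snora78. The 89 share 72 hosts, and 14 hosts hold several members, 31 in all. Snhg12 holds the most, with Snora16a, Snora44, Snora61 and Snord99. A total of 43 members overlap an exon of some host transcript, so reads of the snoRNA and of its host cannot be told apart there.

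The targeted genes were lower in m-z+ libraries at the 1-cell stage and not clearly so later. For Dppa2, levels were 9.38 and 9.52 FPKM in the Dppa2 m-z+ 1-cell libraries against 32.3 and 32.7 in their controls, and at 44.8 and 59.2 against 49.7 and 53.0 at the 2-cell stage. Dppa4 stood at 1.13 and 0 in the Dppa4 m-z+ 1-cell libraries against 4.37 and 6.92 in controls, and at 25.5 and 20.3 against 30.1 and 17.6 at the 2-cell stage. Library totals ran from 412115 to 629583 FPKM and 10706 to 13071 genes reached 1 FPKM, and the depth in reads is unknown because only FPKM were used. Of fixed markers, 13 to 14 of 14 genes of the 2-cell stage rose and 11 to 12 of 12 maternal oocyte genes fell from 1-cell to 2-cell embryos, over the 4 combinations of arm and genotype (limma). Markers of other cell types were sparse: 2 of 10 cumulus and granulosa genes were tested (summed level 1.92 to 9.53 FPKM over libraries), 2 of 7 sperm genes (0.289 to 14.1) and 3 of 6 blood genes (0 to 14.8). All 3 blood genes rose from the 1-cell to the 2-cell stage (4.58 to 14.8 in sum, against 0 to 0.0825), and their part in the results was not tested.

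One library stood apart in its snoRNAs. In Dppa2 m-z+ 2-cell replicate 1, 40 of the 45 members at 1 FPKM or more in both replicates were lower than in replicate 2, and the median member stood at 27.1% of its level there. The median was 27.0% for H/ACA, 30.7% for C/D and 19.9% for Cajal members. In the other 7 groups the member median in replicate 1 lay between 104% and 180% of replicate 2. Other genes under 200 bases were also lower there (median 41.8% of replicate 2, 219 genes), as did the minor spliceosomal RNAs Rnu11 (7.46 against 76.4 FPKM) and Rnu12 (12.3 against 100.1), whereas the median of 11080 genes of all kinds was 94.9%. The 7SK RNA gene Rn7sk was higher there (24056 against 16978 FPKM). The summed 2-cell markers (683 against 642 FPKM) and maternal markers (456 against 525) were alike in both replicates. Among members the deficit did not follow length in one direction: the median level in replicate 1, as a share of replicate 2, was 60.4% under 100 bases (10 members), 21.5% at 100 to under 200 (29) and 48.8% at 200 or more (6), and the correlation of length with the log2 gap over the 45 members, which share both libraries, was -0.08 (Spearman's rho -0.15). Each result for Dppa2 m-z+ 2-cell embryos is therefore given with and without this library.

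**Figure D1:**
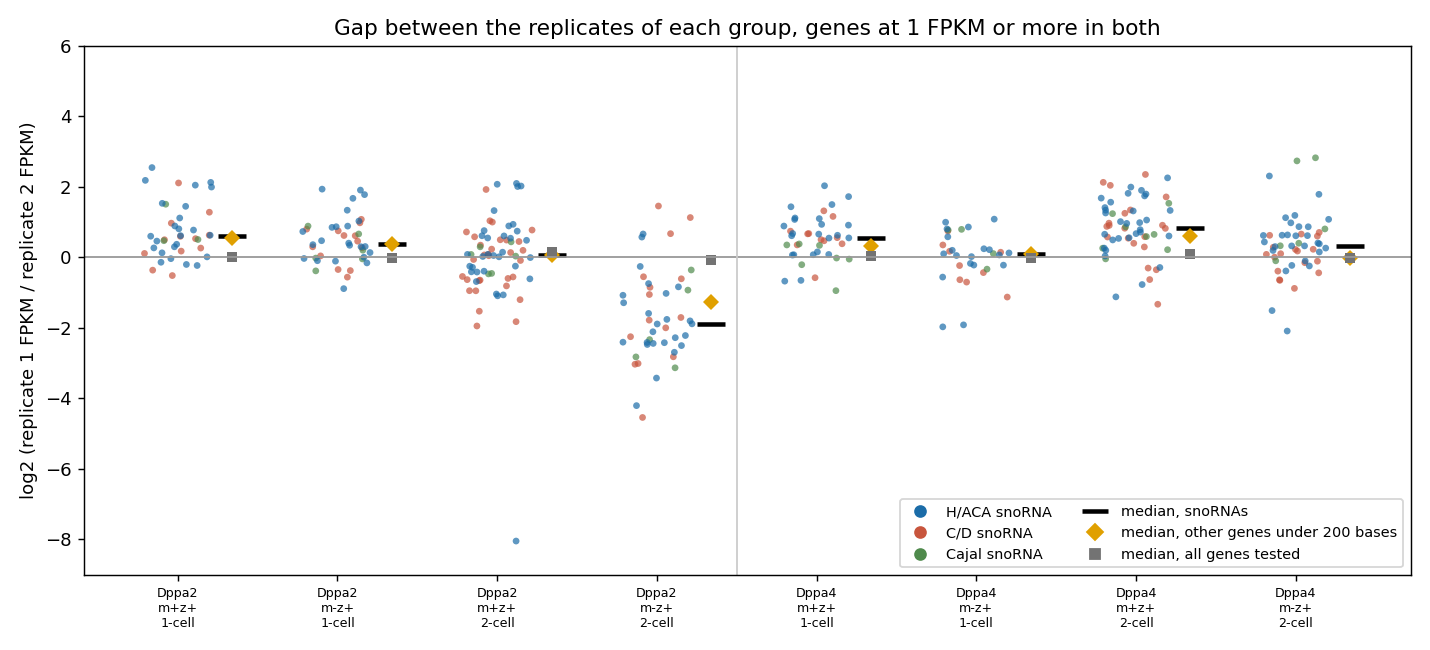
Log2 ratio of replicate 1 over replicate 2 for each snoRNA at 1 FPKM or more in both replicates, by total RNA group, with a bar at the median of the members, a diamond at that of other genes under 200 bases and a square at that of all genes. The Dppa2 m-z+ 2-cell group is the only one with its median below 0, at -1.88, while the other 7 medians lie between 0.06 and 0.85.

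Abundance was concentrated in few RNAs. The 10 members with the highest mean held 66.7% to 78.2% (median 73.9%) of the summed snoRNA FPKM of a library, and 25 members reached 1 FPKM in all 16 libraries. The highest mean FPKM over the 16 libraries were those of Snord21 (244), Snord15b (190), Snora21 (172), Snora47 (167), Snord22 (151) and Scarna6 (112). Mean levels had a median of 7.12 FPKM for H/ACA, 1.12 for C/D and 7.01 for Cajal members, and 23 of the 52 C/D members had a mean below 1 FPKM against 1 of 38 and 1 of 9 in the other classes. The filter was met by 12 members in exactly 2 libraries and by 8 in exactly 3, while 79 met it in 4 or more.

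The summed level of each class was higher at the 2-cell stage in nearly every comparison. H/ACA members summed to 405 and 256 FPKM in the Dppa2 1-cell controls and to 1552 and 1826 in the 2-cell controls. The corresponding Dppa4 controls stood at 519 and 258, then 1716 and 1039. C/D members summed to 531 and 342, then 1688 and 1753 in the Dppa2 controls and to 489 and 350, then 1659 and 860 in the Dppa4 controls. The stages did not overlap in either class or arm of the controls. All members together made up 0.154% to 0.290% of total FPKM in the 1-cell controls and 0.449% to 0.702% in the 2-cell controls. Cajal RNAs summed to 119 and 71.8, then 260 and 256 FPKM in the Dppa2 arm and to 204 and 210, then 560 and 394 in the Dppa4 arm, a sum in which Scarna13 alone was listed at 0 in 8 of 16 libraries.

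In m-z+ embryos the H/ACA sum was 482 and 339 FPKM in 1-cell and 416 and 1310 in 2-cell libraries of the Dppa2 arm, and 267 and 256, then 1381 and 996 in the Dppa4 arm. The C/D sums were 632 and 448, then 337 and 1523 in the Dppa2 arm and 309 and 306, then 1089 and 995 in the Dppa4 arm. Cajal sums were 272 and 209, then 251 and 288 in the Dppa2 arm and 77.3 and 62.9, then 490 and 170 in the Dppa4 arm. For H/ACA and C/D RNAs, only the 2-cell library that stood apart, at 416 and 337, fell within or below its 1-cell range. Replicate 2 of the same group lay near the 2-cell libraries of the other groups.

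**Figure D2:**
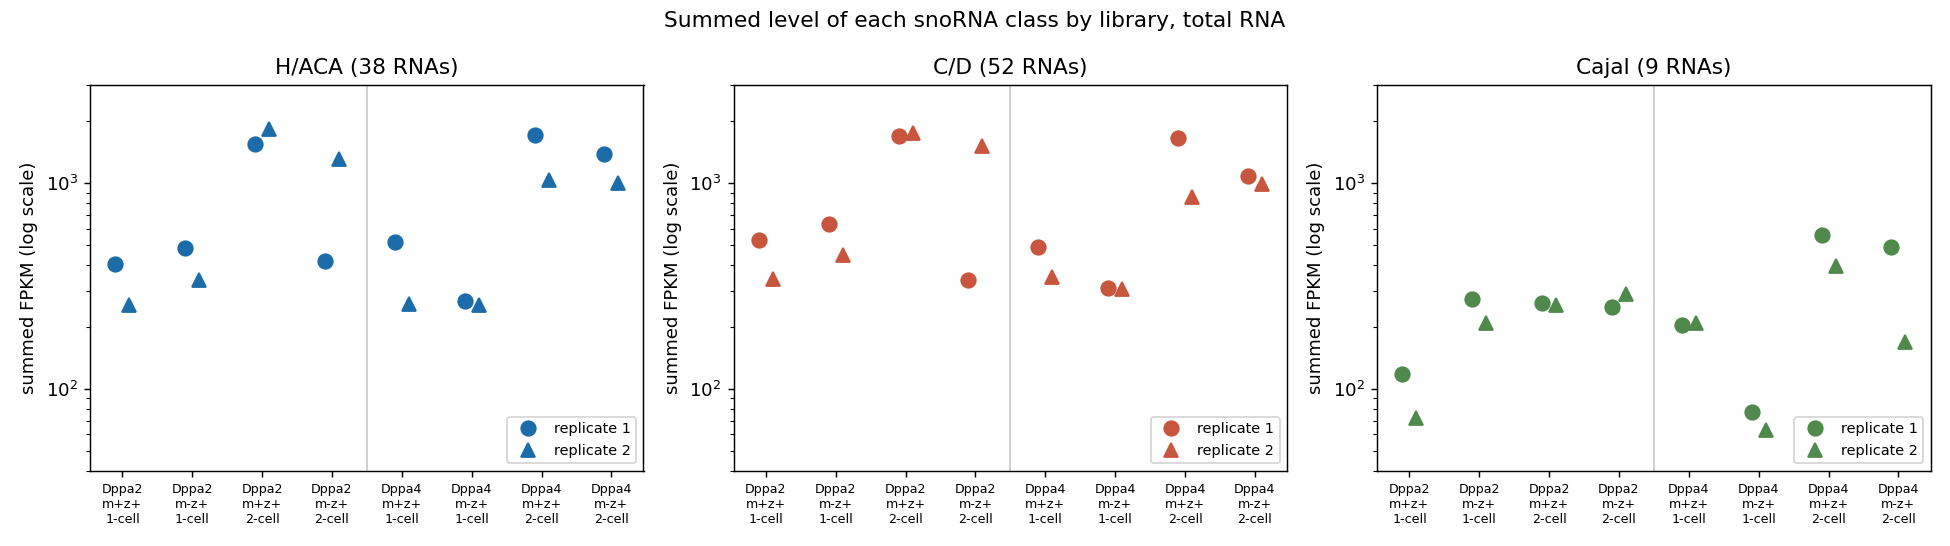
Summed FPKM (log axis) of the H/ACA, C/D and Cajal members in each of the 16 total RNA libraries, by arm, genotype and stage; each symbol is 1 library. H/ACA sums of 2-cell libraries lie between 996 and 1826 and those of 1-cell libraries between 256 and 519, apart from Dppa2 m-z+ 2-cell replicate 1 at 416.

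The stage comparison asked how snoRNA levels differed between late 2-cell and late 1-cell embryos. In the Dppa2 controls 46 of the 99 members rose and 0 fell, where 31.7% of all 15068 genes tested rose and 29.9% fell (limma on log2(FPKM + 1), Benjamini-Hochberg adjusted p below 0.05 over all genes). No member was lower at an unadjusted p below 0.05 either. However, the filter can be met by 2-cell libraries alone, and 22 and 35 members were listed at 0 in the 2 Dppa2 1-cell controls. Such members could not fall, so the absence of falls is not read as a result. The median log2 change was 1.63 over the members and 0.06 over all genes. A rise was not particular to snoRNAs. On a fixed list of 8 other small noncoding RNAs, among them Rn7sk, Rnu11 and Rnu12, 3 rose and 0 fell (limma), with a median of 1.04. By class 22 of 38 H/ACA (median 1.98), 20 of 52 C/D (median 1.22) and 4 of 9 Cajal RNAs (median 1.41) rose. In 66 of 99 members (66.7%) both 2-cell controls stood above both 1-cell controls, against 41.0% of all genes. The filter and the floor also bear on the rises, the median and this share, here and in the groups below. These values are therefore given as description only.

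The Dppa4 controls gave 27 higher and 0 lower members, with 24.9% of all genes higher and 24.2% lower (limma), a member median of 1.15 and no member lower at an unadjusted p below 0.05. These were 14 H/ACA (median 1.53), 11 C/D (median 0.80) and 2 Cajal RNAs (median 1.15). The share that rose was thus close to that of all genes. The absence of falls is again not read as a result, since 25 and 35 members were listed at 0 in the 2 Dppa4 1-cell controls. On the list of 8 other small noncoding RNAs, 5 rose and 0 fell (limma), with a median of 1.31. The groups did not overlap in 66 members (66.7%, against 40.2% of all genes). The count was 12 without 2-cell replicate 1 and 15 without 1-cell replicate 2. Between the arms 23 members rose in both sets of controls, 50% of the Dppa2 list and 85.2% of the Dppa4 list, and the 2 arms share no library. Over all genes tested 3295 rose in both, 68.9% of the Dppa2 list and 87.7% of the Dppa4 list.

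**Figure D3:**
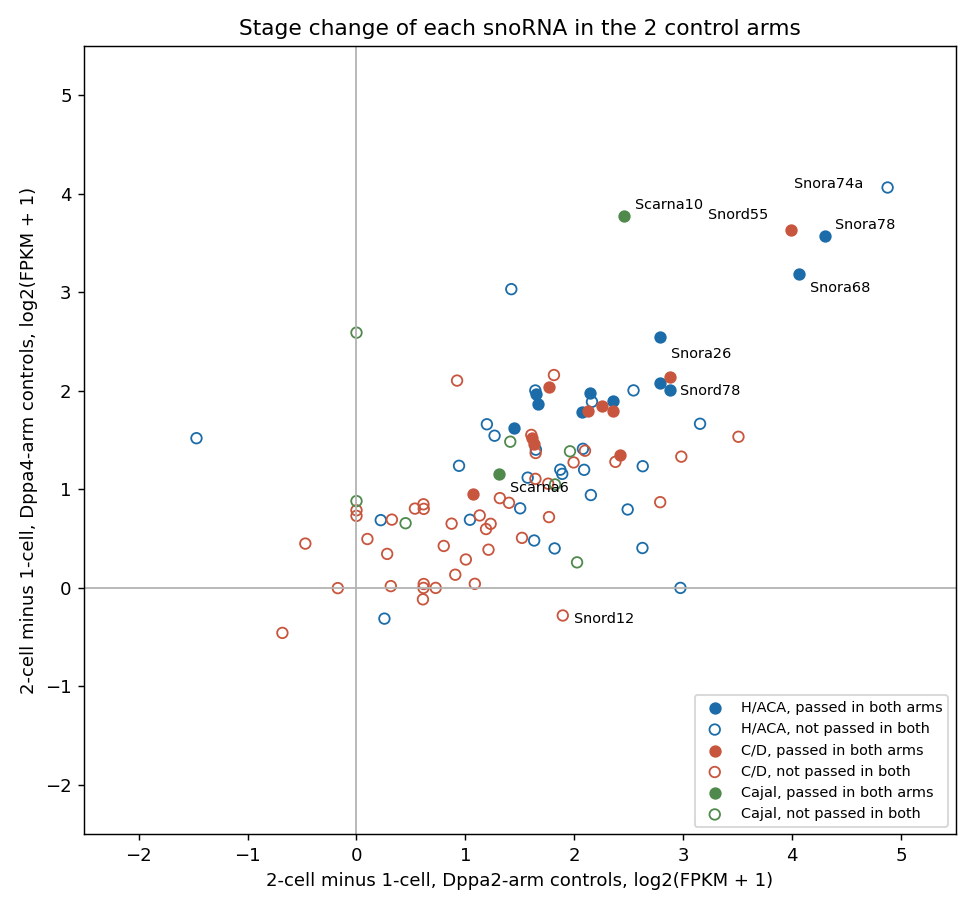
Change from 1-cell to 2-cell controls on the log2(FPKM + 1) scale for each of the 99 members, in the Dppa2 arm (x axis) and the Dppa4 arm (y axis), coloured by class. The 23 members that passed in both arms are filled and all lie above 0 on both axes, with Snora78, Snord55 and Snora68 at the upper right.

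Among H/ACA RNAs the largest rises that passed in both sets of controls were those of Snora78 and Snora68. Snora78 stood at 4.56 and 1.00 FPKM in the Dppa2 1-cell controls and at 65.0 and 64.2 in the 2-cell controls. In the Dppa4 controls it stood at 3.51 and 1.06, then 65.4 and 18.8. Neither arm's stages overlapped, and the log2 changes were 4.30 ± 0.74 (SE, limma adjusted p 0.000292) and 3.57 ± 0.74 (adjusted p 0.00163). Snora68 went from 2.15 and 1.41 to 39.1 and 52.1 FPKM in the Dppa2 controls and from 2.89 and 2.74 to 57.7 and 19.5 in the Dppa4 controls. The stages again stood far apart, with log2 changes of 4.07 ± 0.73 (limma adjusted p 0.000395) and 3.18 ± 0.73 (adjusted p 0.00316).

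The most abundant H/ACA RNA, Snora21, stood at 71.4 and 51.7 FPKM in the Dppa2 1-cell controls and at 381 and 260 in the 2-cell controls. In the Dppa4 controls it stood at 109 and 58.6, then 393 and 228. It rose in both, by 2.35 ± 0.46 (limma adjusted p 0.000676) and 1.89 ± 0.46 (adjusted p 0.0042) on the log2 scale. Snora47 stood at 127 and 83.0, then 282 and 335 FPKM in the Dppa2 controls, and at 123 and 80.0, then 263 and 178 in the Dppa4 controls. It passed the test in the first (1.57 ± 0.54, limma adjusted p 0.0229) and missed it in the second (1.12 ± 0.54, adjusted p 0.104), though the stages did not overlap in either. Snora23 and Snora15 rose in both sets of controls, by 2.79 and 2.08 and by 2.15 and 1.98.

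Of the C/D RNAs, Snord55 was listed at or near 0 in the 1-cell controls and rose in both sets. It was listed at 0.02 and 0 FPKM in the Dppa2 1-cell controls and stood at 16.1 and 14.02 in the 2-cell controls, and the Dppa4 controls gave 0.20 and 0, then 25.7 and 5.87. Every 2-cell control lay above every 1-cell control, with changes of 3.99 ± 0.58 (limma adjusted p 6.98e-05) and 3.63 ± 0.58 (adjusted p 0.000225) on the log2(FPKM + 1) scale. Snord78, which lies in the noncoding host gene Gas5, was listed at 0 in both Dppa2 1-cell controls and stood at 8.25 and 4.81 in the 2-cell controls. The Dppa4 controls gave 0 and 0.49, then 3.90 and 4.96, and the changes were 2.87 (limma adjusted p 0.00121) and 2.14 (adjusted p 0.0105).

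The most abundant C/D RNAs included Snord21 and Snord15b. Snord21 stood at 212 and 108 FPKM, then 428 and 622 in the Dppa2 controls, and at 162 and 117, then 395 and 210 in the Dppa4 controls. The stages did not overlap, yet its changes of 1.76 ± 0.73 (limma adjusted p 0.0546) and 1.06 ± 0.73 (adjusted p 0.251) missed the threshold. Snord15b stood at 100.98 and 71.3, then 419 and 399 FPKM in the Dppa2 controls, and at 99.3 and 70.0, then 411 and 223 in the Dppa4 controls. It rose in both, by 2.26 ± 0.63 (limma adjusted p 0.00763) and 1.85 ± 0.63 (adjusted p 0.0272). Snord17 rose by 1.61 and 1.52 and Snord35a by 2.35 and 1.80 in the 2 sets of controls.

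Among Cajal RNAs, Scarna6 was the most abundant and rose throughout. It stood at 91.0 and 64.0 FPKM in the Dppa2 1-cell controls and at 197 and 186 in the 2-cell controls. The Dppa4 controls gave 59.3 and 61.3, then 146 and 125. It rose in all 4 combinations of arm and genotype, by 1.31, 1.302 (m-z+), 1.15 and 1.33 (m-z+), each with an SE of 0.18. Scarna10 stood at 3.61 and 0, then 11.9 and 9.69 FPKM in the Dppa2 controls and at 2.23 and 2.57, then 69.9 and 29.6 in the Dppa4 controls (2.45 ± 0.71, limma adjusted p 0.00918, and 3.78 ± 0.71, adjusted p 0.000769). The first of these calls was lost without 1-cell replicate 2 (adjusted p 0.132). A second gene model covers the whole of Scarna10, so its level depends on how reads were divided.

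Several members act in cleavage of the ribosomal RNA precursor. A list fixed for this role was followed, with 11 tested RNAs including U3 copies. The role of single RNAs on it, such as Snora64, was not checked here. In the Dppa2 controls 4 rose and 0 fell: the U3 copy Rnu3a, Snora73b, Snord14d and Snord22. In the Dppa4 controls Snora64, Snora73b, Snord14d and Snord22 rose and Rnu3a fell. The list medians were 1.09 and 0.85, beside 1.63 and 1.15 over the 99 members. Snord22 stood at 68.0 and 60.1 FPKM, then 319 and 251 in the Dppa2 controls, and at 83.7 and 64.0, then 360 and 183 in the Dppa4 controls (2.13 ± 0.46, limma adjusted p 0.00138, and 1.80 ± 0.46, adjusted p 0.00574). Snora73b, which resides in the gene Rcc1, went from 6.74 and 6.66 to 56.2 and 55.2 and from 7.81 and 5.32 to 40.5 and 20.7 FPKM.

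Snora73a, a close relative of Snora73b, stood at 16.9 and 6.17, then 16.2 and 9.64 FPKM in the Dppa2 controls, with overlapping stages. Snord118 (U8), needed for the large-subunit ribosomal RNAs, stood at 21.6 and 4.99, then 20.2 and 21.4, and at 17.9 and 11.2, then 18.9 and 13.0 FPKM in the Dppa4 controls, again with overlap. Rnu3a stood at 6.74 and 3.36 FPKM in the Dppa4 1-cell controls and at 0.01 in both 2-cell controls, against 11.7 and 11.5 in the Dppa4 m-z+ 2-cell libraries. It is one of several near-identical U3 copies between which reads can be split, so its value is uncertain. Of the imprinted snoRNA clusters, only Snord107 passed the filter, and it passed no stage test (log2 changes of -0.68 to 0.57).

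In m-z+ embryos the stage change was read in the same way. Here too members could start at the floor, with 24 and 41 listed at 0 in the Dppa4 m-z+ 1-cell libraries. The Dppa4 m-z+ embryos gave 32 members higher and 0 lower, with 25.3% of all genes higher and 25% lower (limma), a median of 1.10 and no member lower at an unadjusted p below 0.05. These were 19 H/ACA (median 1.77), 11 C/D (median 0.62) and 2 Cajal RNAs (median 1.33). The count was 18, 19 and 19 without 1-cell replicate 1, 1-cell replicate 2 and 2-cell replicate 1, and without 1-cell replicate 2 there was 1 lower. Groups did not overlap upward in 55 members (55.6%, against 40.9% of all genes).

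The Dppa2 m-z+ embryos gave 14 members higher and 3 lower, with 28.8% of all genes higher and 28.4% lower (limma) and a member median of 0.53. Groups did not overlap upward in 28 members (28.3%, against 38.6% of all genes) and downward in 6 (6.06%, against 37.9%). Without the 2-cell replicate that stood apart, 40 rose and 2 fell, with a median of 1.16 and with 27.9% of all genes higher and 25% lower. That count comprised 22 H/ACA, 16 C/D and 2 Cajal RNAs, next to 22, 20 and 4 in the controls. With that library kept and replicate 2 left out, the member median was 0, beside -0.04 over all genes. Where 1 library is left, it is assumed to vary like the other groups. The 3 lower members with both libraries were Snora26, Snora57 and Snord98, and the 2 without replicate 1 were Snora57 and Scarna13, the second of which is listed at 0 in replicate 2.

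In all, 6 members rose in each of the 4 combinations of arm and genotype: Snora68, Snora78, Snord17, Snord35a, Snord55 and Scarna6. These are 6.06% of the 99 members, where 2800 of the 15068 genes tested (18.6%) rose in all 4. A further 15 members rose in 3, 17 in 2 and 16 in 1, and 45 in none. These counts include the Dppa2 m-z+ group with the library that stood apart, in which 14 members rose. They were not recomputed without that library, where the member median in that group was 1.16. The lower share of members than of all genes is therefore not read as a result. Snora78 stood at 4.14 and 1.10, then 14.9 and 71.9 FPKM in Dppa2 m-z+ embryos, and at 3.39 and 2.26, then 37.2 and 44.0 in Dppa4 m-z+ embryos. Snord55 was listed at 0 in both Dppa2 m-z+ 1-cell libraries and stood at 4.26 and 17.0 at the 2-cell stage. Even in the library that stood apart, both RNAs were above their 1-cell libraries.

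The genotype comparisons asked whether loss of the maternal product changed the level within a stage. At the 1-cell stage 0 of 99 members passed in the Dppa2 arm, where 0.0133% of all genes were higher and 0.0265% lower (limma), with 5 members at an unadjusted p below 0.05 and a member median of 0.09. In the Dppa4 arm 0 passed, where 0.00664% of all genes were higher and 0% lower (limma), with 1 member at an unadjusted p below 0.05 and a median of -0.16. At the 2-cell stage of the Dppa4 arm 0 members passed, with 0% of all genes called in either direction (limma), 5 members at an unadjusted p below 0.05, all lower, and a median of -0.29. A p that misses the threshold does not show that levels were equal: with 2 libraries a group, the SE of Snora21 was 0.46 on the log2 scale.

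In Dppa2 m-z+ 2-cell embryos 0 members were higher and 2 lower than in controls, where 0.0664% of all genes were higher and 0.119% lower (limma). The member median was -1.02 and 35 members had an unadjusted p below 0.05, of which 34 were lower. Without the library that stood apart the median was -0.16, 13 members had an unadjusted p below 0.05 and 0 passed in either direction (limma). Without replicate 2 in its place, the median was -1.56 and 22 members were lower, where 2.05% of all genes were lower. The median difference from the controls therefore lay mainly in 1 library.

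The 2 lower members were Snora26 and Snord53. Snora26 stood at 23.1 and 27.5 FPKM in the Dppa2 2-cell controls and at 0.18 and 0.71 in the m-z+ 2-cell libraries. Its 1-cell levels were 5.33 and 1.29 in controls and 4.77 and 3.87 in m-z+ embryos. Both m-z+ 2-cell libraries lay below all other libraries of the arm, including replicate 2, whose H/ACA sum was 1310 FPKM. The difference at the 2-cell stage was -4.21 ± 0.56 (limma adjusted p 0.0119). Without replicate 1 it was -3.94 (adjusted p 0.0608), and when only the 2 compared groups were fitted the adjusted p was 0.653, so the call rests on the spread estimated from all 16 libraries.

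Snora26 therefore moved in opposite directions with stage in the Dppa2 arm, rising in controls (2.79 ± 0.56, limma adjusted p 0.000912) and falling in m-z+ embryos (-1.90 ± 0.56, adjusted p 0.0114, and -1.63 with adjusted p 0.0724 without replicate 1). The test of the difference between these changes gave -4.68 ± 0.80 and missed the threshold (limma adjusted p 0.0704). In the Dppa4 arm Snora26 stood at 3.94 and 2.06, then 41.7 and 11.1 FPKM in controls, and at 0.83 and 2.35, then 19.6 and 15.03 in m-z+ embryos. It rose in both, by 2.55 (limma adjusted p 0.00241) and 2.88 (adjusted p 0.000988). The deposited table's entry named Dancr, whose identifier matched no GENCODE M21 gene, was listed at 0 in both Dppa2 1-cell controls and at 11.2 and 12.2 FPKM in the 2-cell controls. It was listed at 0 in both Dppa2 m-z+ 1-cell libraries and at 5.18 and 0.48 in the 2-cell ones, and its part in the values of Snora26 was not tested. The gene that GENCODE M21 names Dancr at this locus is a separate entry, at most 0.38 FPKM in any total RNA library.

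Snord53 was listed at 0 and 0.29 FPKM in the Dppa2 1-cell controls, stood at 7.11 and 3.55 in the 2-cell controls and at 0 and 0.79 in the m-z+ 2-cell libraries. In the Dppa4 arm it was listed at 0 in all 4 1-cell libraries and stood at 2.47 and 0.86 in 2-cell controls and at 2.40 and 2.38 in m-z+ embryos. The m-z+ libraries of the Dppa2 arm lay below the controls without overlap (-2.19 ± 0.36, limma adjusted p 0.0327). The call was lost without replicate 1 of the m-z+ group (-1.77, adjusted p 0.114), without replicate 1 of the controls (-1.77, adjusted p 0.0632) and with only the compared groups fitted (adjusted p 0.982). All values of Snord53 are below 10 FPKM on a model of 78 bases.

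Snora57 showed the same order as Snora26 at a lower level. It stood at 7.82 and 5.58 FPKM in the Dppa2 2-cell controls and at 1.32 and 0 in the m-z+ 2-cell libraries, against 1.53 and 1.27 and 3.79 and 2.07 at the 1-cell stage. In the Dppa4 arm the 2-cell levels were 7.64 and 3.66 in controls and 8.12 and 8.69 in m-z+ embryos. The Dppa2 2-cell difference missed the threshold with both libraries (-2.32 ± 0.50, limma adjusted p 0.0705) and without replicate 1 (-2.93, adjusted p 0.0727). Over all members, the difference between the stage changes of m-z+ and control embryos passed in 0 cases in the Dppa2 arm (limma; 21 members at an unadjusted p below 0.05, all lower; 0% of all genes called) and in 0 in the Dppa4 arm (limma; 3 members, all lower; 0% of genes higher and 0.00664% lower). Its member median was -0.999 in the Dppa2 arm, and -0.32 without replicate 1.

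**Figure D4:**
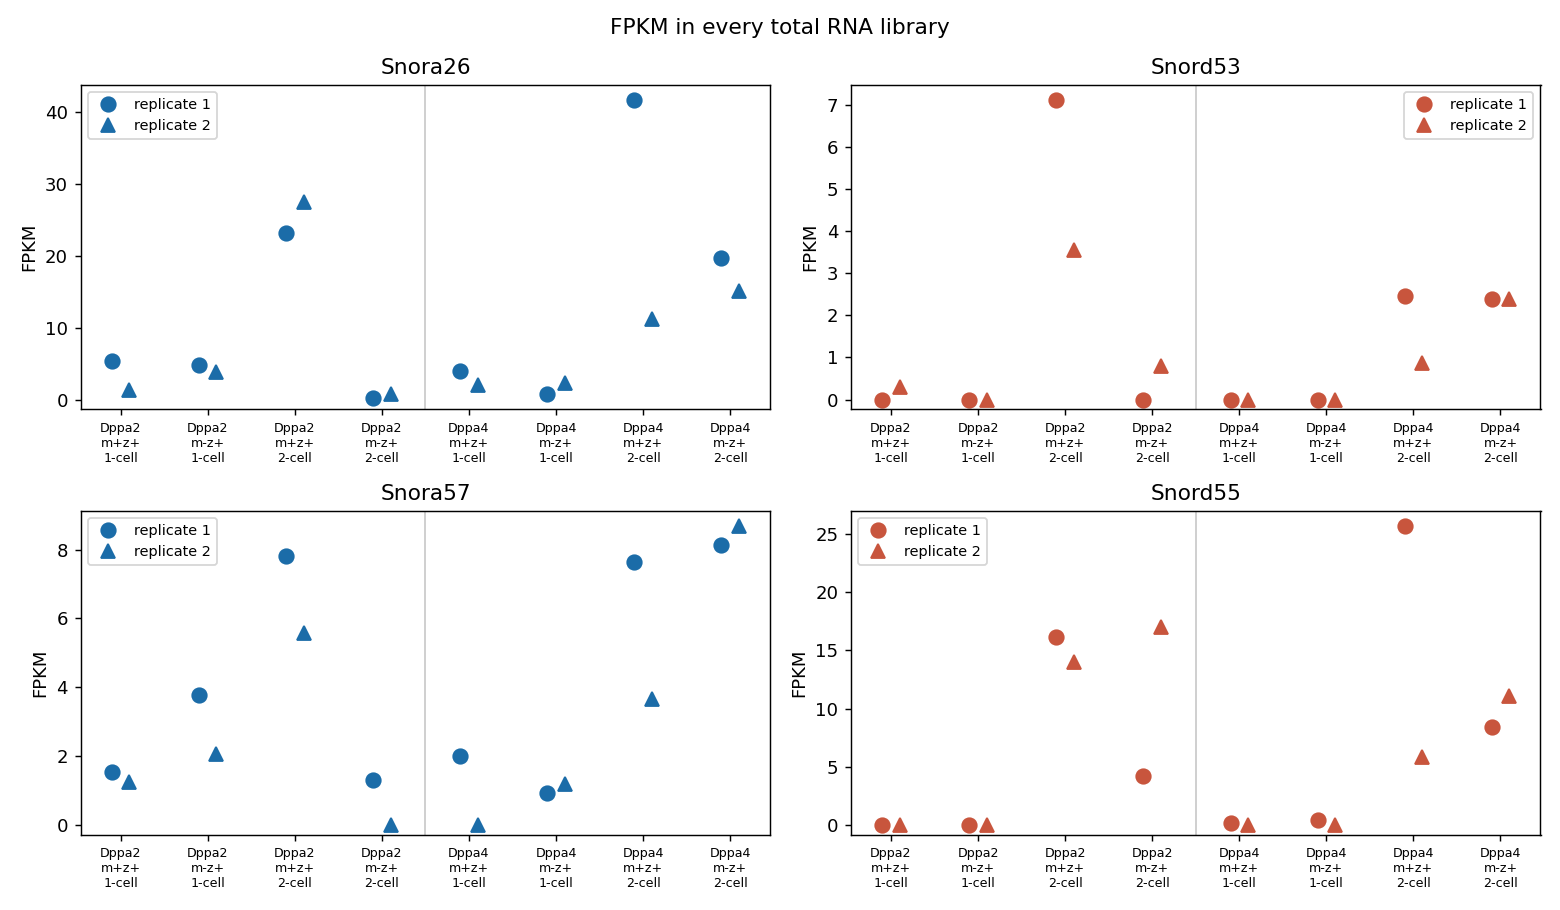
FPKM of Snora26, Snord53, Snora57 and Snord55 in each of the 16 total RNA libraries, by arm, genotype and stage; each symbol is 1 library and the panels have separate axes. Snora26 stands at 0.18 and 0.71 in Dppa2 m-z+ 2-cell embryos and at 11.1 or more in the other 2-cell libraries, while Snord55 is at 4.26 or more in every 2-cell library.

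The controls of the 2 arms were set against each other within a stage, a comparison in which the arm, its strain and its collection cannot be told apart. At the 1-cell stage 0 members passed (limma; 2 at an unadjusted p below 0.05; 0.611% of all genes higher in the Dppa2 arm and 0.398% lower). At the 2-cell stage 2 members were higher in the Dppa2 controls and 0 lower (limma; 2 lower at an unadjusted p below 0.05; 4.5% of all genes higher and 4.63% lower), with a member median of 0.39. The C/D RNA Snord12, from the noncoding host Zfas1, stood at 5.90 and 3.58 FPKM in the Dppa2 2-cell controls and was listed at 0 in both Dppa4 2-cell controls. Over all libraries it reached 1.66 and 2.53 in Dppa2 m-z+ 2-cell embryos and at most 0.47 in the Dppa4 arm. The difference in controls was 2.49 ± 0.27 on the log2(FPKM + 1) scale (limma adjusted p 0.000595), and with only the compared groups fitted the adjusted p was 0.289.

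Snord53 was the other, at 1.26 ± 0.36 (limma adjusted p 0.0487), a call lost without Dppa2 control replicate 1 or Dppa4 control replicate 2 (adjusted p 0.221 and 0.386). The count of higher members was 9 without Dppa2 2-cell control replicate 2, 7 without Dppa4 2-cell control replicate 1 and 1 without its replicate 2, when 1 member was lower.

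Because most members lie within a host gene, each was set beside its host. The pairs include members among the 43 that overlap a host exon, where reads of the 2 cannot be told apart. There were 84 pairs with 67 tested hosts. In the Dppa2 controls both rose in 26 pairs, the member alone rose in 9 with a host that did not pass and in 3 with a host that fell, and in 23 the host alone rose. The median change was 1.59 for members and 0.81 for hosts, and the member's change exceeded its host's in 52 of 84 pairs. Across pairs, which share libraries and in part hosts, the correlation of the changes was 0.21 (Spearman's rho 0.19). In the Dppa4 controls both rose in 13 pairs, with medians of 1.14 and 0.19 and a correlation of 0.13.

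Snora47 and its host Zbed3, a zinc finger gene, went opposite ways. Zbed3 stood at 4404 and 4561 FPKM in the Dppa2 1-cell controls and at 1248 and 1395 in the 2-cell controls (log2 change -1.76, limma adjusted p 1.68e-05), while Snora47 rose by 1.57. The other such pairs were Snord16a with Rpl4 (host -0.52) and Snord58b with Rpl17 (host -1.58). Snora21 and its host Rpl23 rose together, Rpl23 from 21.4 and 18.1 to 70.3 and 83.4 FPKM (1.91).

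Grouped by host in the Dppa2 controls, 16 of 28 members in ribosomal protein genes rose (median 2.03) and 5 of 7 in translation factor genes (1.503). Rises were also seen in 8 of 14 in noncoding genes (1.65) and 11 of 40 in other protein-coding genes (1.20). Of the 10 without a longer host gene as defined above, 6 rose (1.65). These 10 include Snora78, inside the 435-base Snhg9, and Snord60, which shares 78 bases with the 497-base Rab26os. The last group is therefore not strictly free of host genes. In the Dppa4 controls the counts were 7 of 28 (1.18), 3 of 7 (1.41), 6 of 14 (1.53), 8 of 40 (0.83) and 3 of 10 (0.96). Ribosomal protein hosts thus held the highest median in one arm and not in the other, and the difference between host kinds was not tested. Of 16 tested noncoding host genes on a fixed list, 11 rose in the Dppa2 controls and 9 in the Dppa4 controls, and 0 fell.

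The proteins of snoRNA particles were followed as 2 fixed lists. Of 8 tested core proteins 6 rose in the Dppa2 controls (median 1.04) and 3 in the Dppa4 controls (median 0.71), with 0 lower. Fbl, which encodes fibrillarin, stood at 4.45 and 2.78, then 43.4 and 34.8 FPKM in the Dppa2 controls (3.13, limma adjusted p 1.35e-05) and at 7.18 and 5.47, then 25.6 and 11.4 in the Dppa4 controls (1.32, adjusted p 0.0106). Nhp2, a core protein of H/ACA particles, stood at 24.97 and 26.1, then 99.6 and 75.8 FPKM in the Dppa2 controls and rose by 1.73 and 1.64 in the 2 arms. Dkc1, the H/ACA pseudouridine synthase, stood at 74.8 and 51.6, then 87.3 and 88.2 FPKM and did not pass (0.49 and -0.13).

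Of 16 tested entries for assembly and trafficking factors, in which the Cajal body gene Coil is listed as 2 entries, 8 rose and 1 fell in the Dppa2 controls (median 1.10) and 7 rose and 3 fell in the Dppa4 controls (median 0.59). The rises included Tgs1, the cap hypermethylase, by 4.04 and 3.26, Ruvbl1 by 3.87 and 3.20, Znhit3 by 3.45 and 3.17, and Wrap53, which takes Cajal RNAs to Cajal bodies, by 3.16 and 2.73. Ruvbl2, the partner of Ruvbl1 in the same ATPase complex, fell by 1.43 and 1.11, from 25.02 and 22.7 to 8.60 and 7.90 FPKM in the Dppa2 controls. Phax and Rpap3 also fell in the Dppa4 controls (-1.36 and -0.86).

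The polyA table, normalized separately, offers the same RNAs as they appear after oligo-dT priming of single embryos without strand, so host and antisense reads cannot be separated from them. The median of the members' mean levels was 0.689 FPKM there and 2.92 in the total RNA table, and 6 members reached a mean of 10 FPKM against 27, but the members were chosen by their total RNA level, so nothing is read from this difference. In 19 members the polyA mean was the higher of the 2, and 4 were listed at 0 in all 16 polyA libraries. Snord21, the most abundant member in total RNA, ranged from 0 to 11.2 FPKM. The 63 members at 1 FPKM or more in 2 or more polyA libraries were tested.

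From 1-cell to 2-cell WT embryos 9 of the 63 rose and 1 fell, where 17.4% of 18506 genes rose and 8.42% fell (limma), with a member median of 0.82. The 9 were Snord42b (3.99), Snord35a (3.85), Snora57 (3.60), Snora68 (3.44), Snord55 (3.20), Snora21 (2.64), Snord104 (2.43), Snord69 (2.26) and Snora78 (1.99). Snora68 stood at 0.55 and 3.02, then 26.3 and 26.0 FPKM, and Snord55 was listed at 0 in both 1-cell embryos and stood at 6.82 and 9.76 in the 2-cell embryos. Of the 6 members that rose in every total RNA combination, Snora68, Snora78, Snord35a and Snord55 are among these 9. Snord17, listed at 0 in all 4 WT embryos, and Scarna6, listed at 0, 0, 0 and 1.18 FPKM, did not pass the test. Snord118 was the one that fell, from 35.5 and 37.1 to 9.37 and 3.17 FPKM (-2.505 ± 0.77, limma adjusted p 0.0226), a call lost without either 1-cell embryo or without 2-cell embryo 2 (adjusted p 0.0993, 0.107 and 0.188).

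At the 2-cell stage m-z- embryos were set against m-z+ embryos of the same arm, 3 against 3. The libraries labelled Dppa2 m-z- stood at 155, 130 and 76.5 FPKM for Dppa2 itself, not below the 92.4, 87.4 and 63.3 of the m-z+ embryos, so the label is not visible as a loss of that RNA. Dppa4 stood at 0, 0 and 0.149 in Dppa4 m-z- embryos. In the Dppa2 arm 0 members passed (limma; 3 at an unadjusted p below 0.05; 0% of genes higher and 0.0054% lower), and in the Dppa4 arm 0 passed (limma; 7 at an unadjusted p below 0.05, 6 of them higher; 0% of genes higher and 0.0162% lower), with a member median of 0.58. Snora26 varied widely among these single embryos. It stood at 0.19, 0.09 and 2.84 FPKM in Dppa2 m-z+ and at 0.14, 0.84 and 15.8 in the libraries labelled Dppa2 m-z-, and at 0.05, 5.03 and 20.4 in Dppa4 m-z+ and 15.3, 10.4 and 9.60 in Dppa4 m-z- embryos. The 2 WT 2-cell embryos stood at 6.89 and 0.34, so the single embryos of most groups overlapped.

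Some members share their bases with a second small gene model, and their FPKM then depends on which model took the reads. For Scarna13 and Snora34 the shared bases are in capitals.
Scarna13: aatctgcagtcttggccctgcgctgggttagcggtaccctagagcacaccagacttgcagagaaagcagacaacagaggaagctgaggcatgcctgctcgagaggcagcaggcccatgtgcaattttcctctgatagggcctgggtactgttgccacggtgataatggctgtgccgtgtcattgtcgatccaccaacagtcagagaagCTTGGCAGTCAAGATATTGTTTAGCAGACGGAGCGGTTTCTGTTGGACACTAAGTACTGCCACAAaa
Snora34: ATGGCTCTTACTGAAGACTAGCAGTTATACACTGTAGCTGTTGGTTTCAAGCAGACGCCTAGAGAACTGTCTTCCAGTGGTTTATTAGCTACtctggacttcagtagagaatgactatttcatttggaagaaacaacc
Scarna13 lies at chr12:105031075-105031349 (minus strand) in an intron of the noncoding gene Snhg10 and holds all 65 bases of the miRNA model Mir3069. Snora34 lies at chr15:98519716-98519853 (minus strand) in an intron of Kansl2 and shares 92 bases with Mir1291. In every one of the 16 libraries either Scarna13 or Mir3069 was over 10 times the other, 8 libraries each way, and in 0 libraries did both reach 1 FPKM.

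Scarna13 was listed at 0 in all 4 Dppa2 controls, where Mir3069 stood at 45.7, 25.4, 69.2 and 103 FPKM. In the Dppa2 m-z+ embryos Scarna13 stood at 174 and 110 at the 1-cell stage and at 76.4 and 0 at the 2-cell stage, and Mir3069 at 0.126, 0.135, 0.207 and 63.7. In the Dppa4 controls Scarna13 stood at 122, 124, 249 and 208, with Mir3069 at 0.147 or less. A group difference in Scarna13 alone, such as 174 and 110 against 0 and 0 FPKM at the 1-cell stage, was mirrored in reverse by Mir3069. Snora34 was over its overlapping model in 2 libraries and under it in 14, Snora74a in 6 and 10, and Scarna3a in 2 and 13.

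Adding the FPKM of the overlapping model to the member, an alternative chosen after the data were seen and one that sums models of unequal length, changed some calls. Snora74a in the Dppa2 controls went from a log2 change of 4.88 (limma adjusted p 0.217) to 2.08 (adjusted p 0.000755), Snora34 gave 2.94 (adjusted p 0.00293), and Scarna13 gave 1.28 and did not pass. Scarna10 with its model rose by 1.14 in the Dppa4 controls (limma adjusted p 0.0241), in place of 3.78. Scarna3b, Snora16a, Snora43 and Snora81 stood above the model overlapping them in every library in which either reached 1 FPKM.

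**Figure D5:**
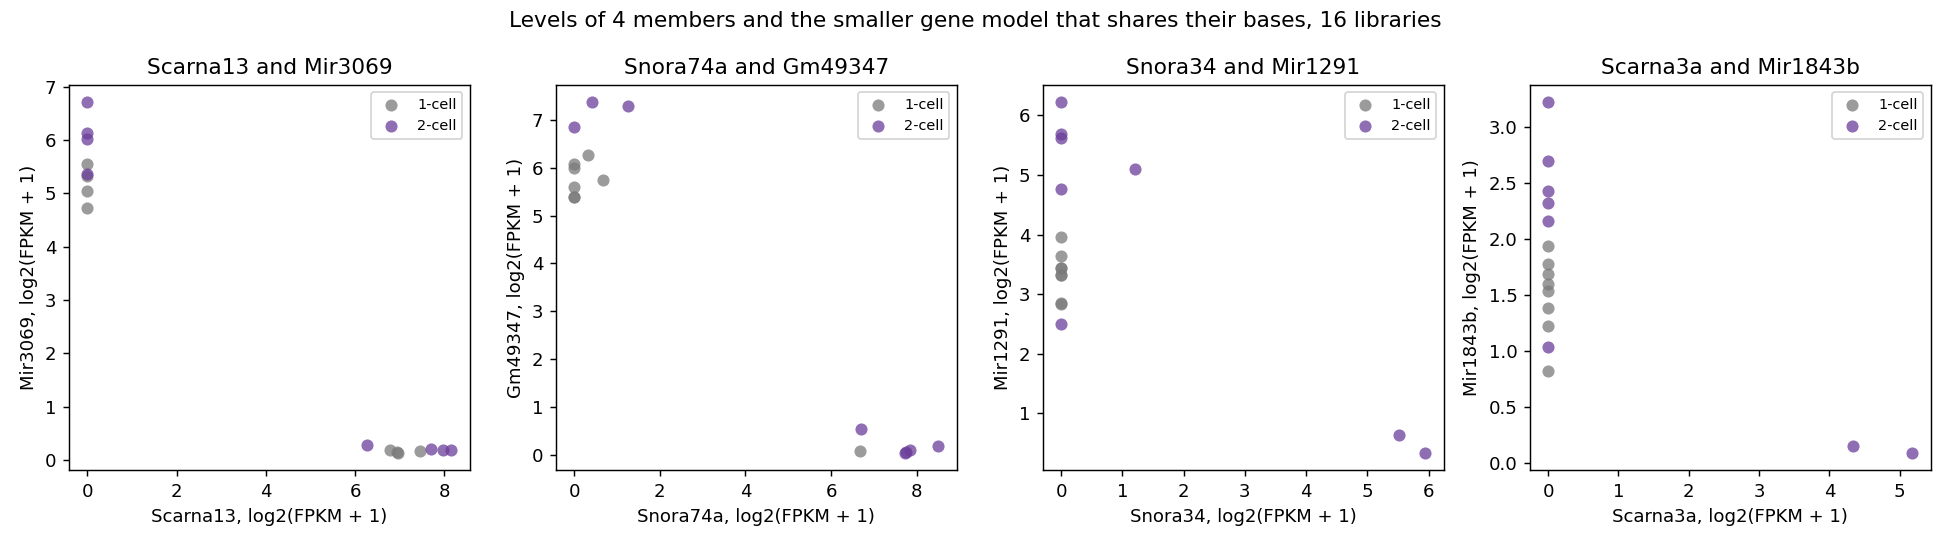
Level of Scarna13, Snora74a, Snora34 and Scarna3a (x axes) against that of the small gene model overlapping each (y axes), as log2(FPKM + 1); each point is 1 of the 16 total RNA libraries, coloured by stage. For Scarna13 and Mir3069 one of the pair is near 0 in each library, with Scarna13 the higher in 8 and Mir3069 the higher in 8.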

How the data were processed

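Levels are FPKM per gene as deposited by the authors in 2 tables, 1 for total RNA and 1 for polyA RNA, each with 16 libraries. HISAT2 2.1.0, StringTie 1.3.3b and the mm10 build are named in the submitters' processing notes, and the annotation, the strand setting and filters were not given in the sources used here. Per the labels, total RNA libraries are reverse-stranded and polyA libraries carry no strand. With FPKM only, the depth in reads is unknown and no counting interval can be given.

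All 46078 genes of a table were read, and those at 1 FPKM or more in 2 or more libraries were tested (15068 and 18506). Log2(FPKM + 1) was fitted with limma 3.58.1 (statmod 1.5.0, R 4.3.3), with 1 mean per group over all 16 libraries, moderated with trend and robust settings, and p-values were adjusted over all tested genes by Benjamini-Hochberg, called at 0.05. Fold changes on this scale understate changes of low genes. The fit was tested on simulated data. Gene identifiers were matched to GENCODE M21 (mm10) for 45229 genes (98.2%), from which positions, hosts and sequences were taken. Same-numbered replicates were not treated as pairs.

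Genes were named by rule: Snora26, the most abundant members of each class, the largest changes passing in both control arms, members passing in a genotype, arm or polyA comparison, and the fixed lists. Genes named outside it were chosen after their values were seen. The members, lists and rules were chosen with earlier results of these data known. Alternatives covered pseudocount, filter, scaling, the fitted groups, moderation, a replicate block, overlapping models and leaving out each library.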

Additional observations from a re-analysis of the deposited data

Results flagged for a closer look

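In the Dppa2 arm, 3 RNAs rose with stage in the controls while every m-z+ library of the 2-cell stage lay below its 1-cell libraries. Their stage change in m-z+ embryos minus that in controls was -4.68 for Snora26 (limma adjusted p 0.0704), -2.999 for Snora57 (adjusted p 0.288) and -1.64 for Snord14d (adjusted p 0.394), so the tested difference passed for none of the 3. Without the m-z+ 2-cell library that stood apart the differences were -4.42 (limma adjusted p 0.159), -3.61 (adjusted p 0.143) and -1.28 (adjusted p 0.568). Snord14d, a C/D RNA of ribosomal RNA processing, stood at 2.88 and 2.38, then 0.91 and 2.13 FPKM in Dppa2 m-z+ embryos and at 2.12 and 2.73, then 6.06 and 6.31 in their controls. In the Dppa4 arm all 3 rose in controls and in m-z+ embryos. The 3 were picked from all members for their opposite order in the Dppa2 arm. The share of all genes with that joint pattern was not counted, so whether 3 members exceed it is unknown. Taken singly, the stages did not overlap upward in 41.0% of all genes in Dppa2 controls. They did not overlap downward in 37.9% in Dppa2 m-z+ embryos.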

How the results depend on the processing

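Of 294 count values recomputed under alternatives other than leaving out a library, 273 stayed within 1.5 times the reported count, and of 144 with a library left out, 123 did. Lower members in Dppa2 m-z+ embryos from 1-cell to 2-cell numbered 1 without a filter and 0 with a pseudocount of 10. Higher members in Dppa4 m-z+ embryos numbered 21 without a filter. In WT polyA embryos 14 were higher with a pseudocount of 0.1 and 5 with 10, and 0 were lower without a filter or with only the compared groups fitted. Members lower in Dppa2 m-z+ than in control 2-cell embryos numbered 0 with only the compared groups fitted, 1 with a pseudocount of 0.1, 5 with 10 and 1 with TPM scaling. Between the 2-cell controls of the arms, higher members numbered 1 without a filter, 0 with the compared groups alone, 1 with a pseudocount of 0.1 and 1 with TPM scaling, and lower members 1 without trend and robust settings, with the compared groups alone and with a pseudocount of 10. With the compared groups alone, 1 member was also lower between the 1-cell controls and 1 in Dppa4 m-z+ 1-cell embryos. The cause was not tested.

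With 1 library left out, the stage counts ran from 10 to 40 higher and 1 to 7 lower in Dppa2 m-z+ embryos, from 12 to 34 higher in Dppa4 controls, from 18 to 29 higher and 0 to 1 lower in Dppa4 m-z+ embryos, and from 0 to 1 lower in WT polyA embryos. Lower members ran from 0 to 22 between Dppa2 m-z+ and control 2-cell embryos and from 0 to 11 for the difference of the stage changes, and arm counts from 1 to 9 higher and 0 to 1 lower. Snora26 in Dppa2 m-z+ against control 1-cell embryos ran from -0.26 (without control replicate 2) to 1.21 (without control replicate 1), where neither value passed.

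Over all tested genes, same-numbered total RNA libraries deviated from their group means with correlations of -0.0608 to 0.139. Among polyA libraries the correlations were -0.183 to 0.0789. Members at 1 FPKM or more in both replicates were more often higher in replicate 1. At the 1-cell stage these were 33 of 39 (Dppa2 control), 31 of 42 (Dppa2 m-z+), 34 of 41 (Dppa4 control) and 20 of 32 (Dppa4 m-z+). At the 2-cell stage they were 40 of 70, 5 of 45, 52 of 60 and 38 of 52 in the same order. Whether same-numbered libraries were handled together was not tested. With the replicate number as a block, 1 member in place of 2 was higher between the 2-cell controls of the arms, and no other count moved by over 1.5 times.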
